A study of Mus musculus with 48 samples.

Results

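Roux-en-Y gastric bypass (RYGB) joins a small gastric pouch to the jejunum, so that a meal no longer passes the duodenum, while bile and pancreatic juice still flow through it. The villi of this bypassed duodenum were compared with the villi of the jejunum in mice killed 9 days after RYGB. The comparison used 6 of the 48 libraries of the series, namely the 3 duodenal libraries Roux1 to Roux3 and the 3 jejunal libraries roux1 to roux3, which are called RYGB replicates 1 to 3 of each segment here. The segments were deposited in separate tables, which were joined on the Ensembl gene identifier, and 10893 genes were listed in both. The same comparison in sham-operated mice, with 4 duodenal and 4 jejunal libraries, served as the background without bypass. All mice were male C57Bl6 mice with diet-induced obesity from a high fat diet. After RYGB or sham surgery, all received a liquid elemental diet for the 9 days up to this time point, and they were killed at 10am after fasting. After a short bath in cold EDTA the villi were scraped off, so a library holds villus epithelium with the immune and stromal cells that came with it. The labels give no age, do not say whether equally numbered duodenal and jejunal libraries came from the same mouse, and do not say whether the jejunum lay before or beyond the new junction with the duodenal limb. They do not state that each library came from its own mouse, so p-values measure the spread between these libraries.

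The segments of the small bowel divide the work of absorption. The duodenum takes up most iron, is rich in alkaline phosphatase and makes enteropeptidase, the protease that starts the activation of pancreatic enzymes. Pdx1, a homeobox factor of the pancreas and duodenum, marks its epithelium, and absorption of fat, sugars and amino acids extends through the jejunum. Enterocytes also make their own cholesterol by the mevalonate pathway, whose genes are driven by the factor SREBP2 when sterol in the cell is low.

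The libraries behaved largely as their labels say for tissue and segment, with the exceptions given here. The summed level of 10 enterocyte genes was 18863.3 to 24019.6 CPM, the share of a library's counts scaled to a common total, in the RYGB duodenum and 20942.5 to 29521.3 CPM in the RYGB jejunum. The sums overlapped, but 7 of the 10 genes were lower in every RYGB duodenal library than in every RYGB jejunal library. Only 1 was higher in every one, beside shares of 9.89% lower and 27.4% higher over all genes tested. The duodenal genes Pdx1, Slc40a1 and Akp3 were higher in every RYGB duodenal library than in every RYGB jejunal library. Slc40a1 and Akp3 are among the ranked genes below, for which lack of overlap was part of the choice. Their order is thus no check of the labels. The ileal markers Slc10a2, Fabp6 and Fgf15 were not among the joined genes. Slc10a2 was listed for the jejunum alone, at 1.6, 2.5 and 1.0 CPM after RYGB, so its absence from the join is no sign of its level there. Pancreatic acinar RNA differed between libraries, since the summed level of 6 acinar genes was 31.3, 62.3 and 3744.3 CPM in duodenal RYGB replicates 1 to 3 against 35.5 to 140.9 CPM in the RYGB jejunum. Among the sham libraries, duodenal replicate 4 and jejunal replicate 2 stood apart on the segment genes, with Akp3 at 204.7 CPM in the former and at 120.6 CPM in the latter, while it was 3639.1 to 9306.5 CPM in the other duodenal and at most 3.1 CPM in the other jejunal sham libraries. Duodenal RYGB replicate 1 was near duodenal sham replicate 4 on such genes. Akp3, Slc40a1, Pdx1 and Meis2 were 264.8, 25.2, 16.9 and 2.5 CPM in the former and 204.7, 26.9, 14.5 and 2.1 CPM in the latter. The values of RYGB replicate 1 were the lowest of the RYGB duodenum, but lay above every RYGB jejunal library. Sequencing lane followed segment, as the library names give lane 2 for all duodenal libraries and for jejunal RYGB replicate 2, and lane 1 for the other jejunal libraries.

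After RYGB, the duodenum and the jejunum differed in 1431 of 10778 genes tested (13.3%). A differentially expressed gene (DEG) had an adjusted p-value under 0.05 in limma on log2(CPM + 1) with a change of 1.5-fold or more, and every log2 difference in the text is duodenum minus jejunum on that scale, which understates the change of genes near 1 CPM. Of the DEGs, 1011 were higher (9.38%) and 420 were lower (3.90%) in the duodenum. This split depended on the scaling. The median log2 difference of all genes was 0.24, and when each library was divided by its median ratio to the others, the median was 0.01 and 635 genes were higher (5.89%) and 634 lower (5.88%). The libraries of the segments did not overlap for 4024 genes (37.3%), with 2958 higher (27.4%) and 1066 lower (9.89%) in the duodenum. The number of DEGs was 596, 717 and 270 without duodenal RYGB replicate 1, 2 or 3, and it was 762, 444 and 3255 without jejunal RYGB replicate 1, 2 or 3. With lane as a covariate it was 598, and the median log2 difference of all genes was 0.329. Among the libraries of lane 2 alone, where the jejunum had 1 library, that median was 0.331. Jejunal RYGB replicate 2 alone sets the lane term, since no other group mixes lanes. The RYGB difference with lane as a covariate is thus that of the duodenum from this 1 library, which holds for all such counts below.

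Akp3 and Slc40a1 led the genes that were higher in the bypassed duodenum. Akp3 (chr1:87124973-87127912, plus strand, GRCm38), an alkaline phosphatase of the duodenal brush border, was 264.8, 5005.4 and 4368.0 CPM in the 3 duodenal libraries and 1.4, 0.2 and 6.3 CPM in the 3 jejunal libraries. The lowest duodenal value lay far above the highest jejunal one, and the log2 difference was 9.35 ± 1.10 (SE, adjusted p = 0.00341). Slc40a1, which encodes the iron exporter ferroportin, was 25.2, 349.7 and 409.2 CPM against 0.7, 5.3 and 7.1 CPM, a log2 difference of 5.14 ± 1.03 (adjusted p = 0.0193). For both genes duodenal replicate 1 was the lowest of its group. Reg1, a secreted lectin-like protein of the REG family, was 1529.5, 3744.4 and 4531.3 CPM in the duodenum and 40.2, 63.0 and 282.6 CPM in the jejunum (log2 difference 5.03 ± 0.69, adjusted p = 0.00527). The forkhead factor Foxq1 was 21.6, 41.5 and 76.7 CPM against at most 1.0 CPM in any jejunal library, with a log2 difference of 4.59 ± 0.41 (adjusted p = 0.00149). Tmprss15, the gene of enteropeptidase, was 245.2, 593.0 and 530.9 CPM in the duodenum and 3.3, 27.7 and 81.0 CPM in the jejunum (log2 difference 4.30 ± 0.92, adjusted p = 0.0235). Others among the 12 with the largest positive difference were the fatty acid hydroxylase Cyp4a10 (4.53), the proton channel Otop3 (4.52), the proline transporter Slc6a20a (4.08), the nuclear receptor Nr0b2 (3.91), the gluconeogenic enzyme Pck1 (3.81) and the kinase Pdk4 (3.62), which blocks pyruvate dehydrogenase.

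Duox2, Duoxa2, Nos2 and Slc34a2 led the genes that were lower in the bypassed duodenum. Duox2, an epithelial oxidase that makes hydrogen peroxide at the luminal surface, was 119.6, 91.3 and 1.2 CPM in the duodenum and 1002.1, 1769.2 and 1862.0 CPM in the jejunum (log2 difference -5.68 ± 1.32, adjusted p = 0.0293). Its maturation factor Duoxa2 was 12.3, 30.9 and 0.7 CPM against 393.5, 677.6 and 341.3 CPM, a log2 difference of -5.65 ± 0.91 (adjusted p = 0.00956). The genes lie head to head on chromosome 2, Duox2 at chr2:122279247-122298449 on the minus strand and Duoxa2 at chr2:122298900-122302885 on the plus strand (GRCm38), with 451 bases between their starts. In both, duodenal replicate 3 was lowest and every jejunal library lay above every duodenal one. Nos2, the inducible nitric oxide synthase, had 10.6, 31.8 and 0.4 CPM in the duodenum and 45.2, 2588.6 and 381.7 CPM in the jejunum, so its log2 difference of -5.46 ± 1.5 (adjusted p = 0.0475) came with a wide spread among the jejunal libraries. It missed the threshold without jejunal replicate 2 or 3 and without each of the duodenal replicates. Slc34a2, the apical sodium-phosphate transporter, was 103.8, 6.6 and 0.7 CPM against 334.0, 201.1 and 411.2 CPM (log2 difference -4.78 ± 1.23, adjusted p = 0.0396). It missed the threshold without jejunal replicate 1, 2 or 3 and without duodenal replicate 2 or 3. The other 8 of the 12 with the largest negative difference were the sterol synthesis enzymes Sqle (-4.54) and Cyp51 (-4.51), the glycosyltransferases Mgat4c (-4.33) and B3galt5 (-4.10), the cornified envelope protein Sprr1a (-4.22), the hexokinase Hk2 (-3.92), the serine protease Prss30 (-3.80) and the GPI-anchored protein Gml (-3.74). Of the 23 ranked genes reported, 18 kept their direction and stayed past the threshold under each of 16 other settings, and the exceptions were Slc40a1, Tmprss15, Duox2, Nos2 and Slc34a2, which kept their direction but missed the threshold under some.

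**Figure D1:**
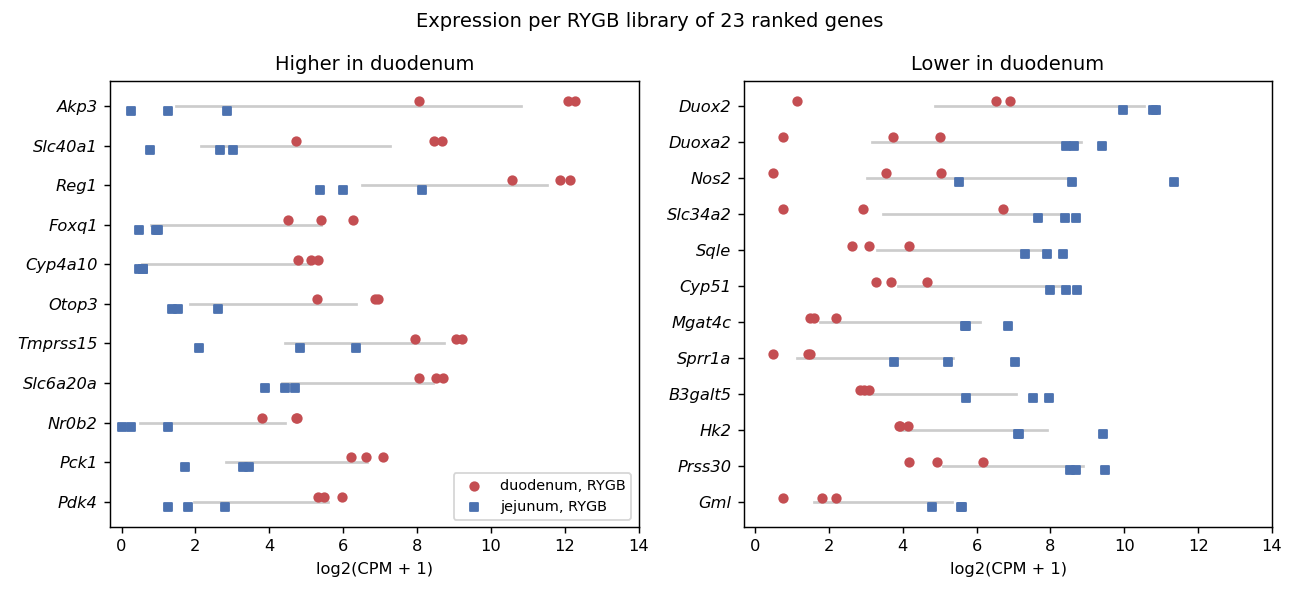
Expression as log2(CPM + 1) (x axis) of 11 of the 12 genes with the largest positive (left) and the 12 with the largest negative (right) difference between duodenum and jejunum after RYGB, with 1 point for each of the 6 libraries and a grey line that joins the means of the segments. The points of the segments do not overlap for any of the 23 genes, which is part of how they were chosen.

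The functional lists differed in how many of their members were DEGs and in which direction. The lists were described by their counts and medians beside those of all genes, for which the shares were 9.38% higher and 3.90% lower and the median log2 difference was 0.24. In bulk RNA, fewer cells of a type and less RNA per cell cannot be told apart. Of the 10 enterocyte genes, 1 was a higher and 2 were lower DEGs, also with median-ratio scaling, and their median log2 difference was -0.59.

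**Figure D2:**
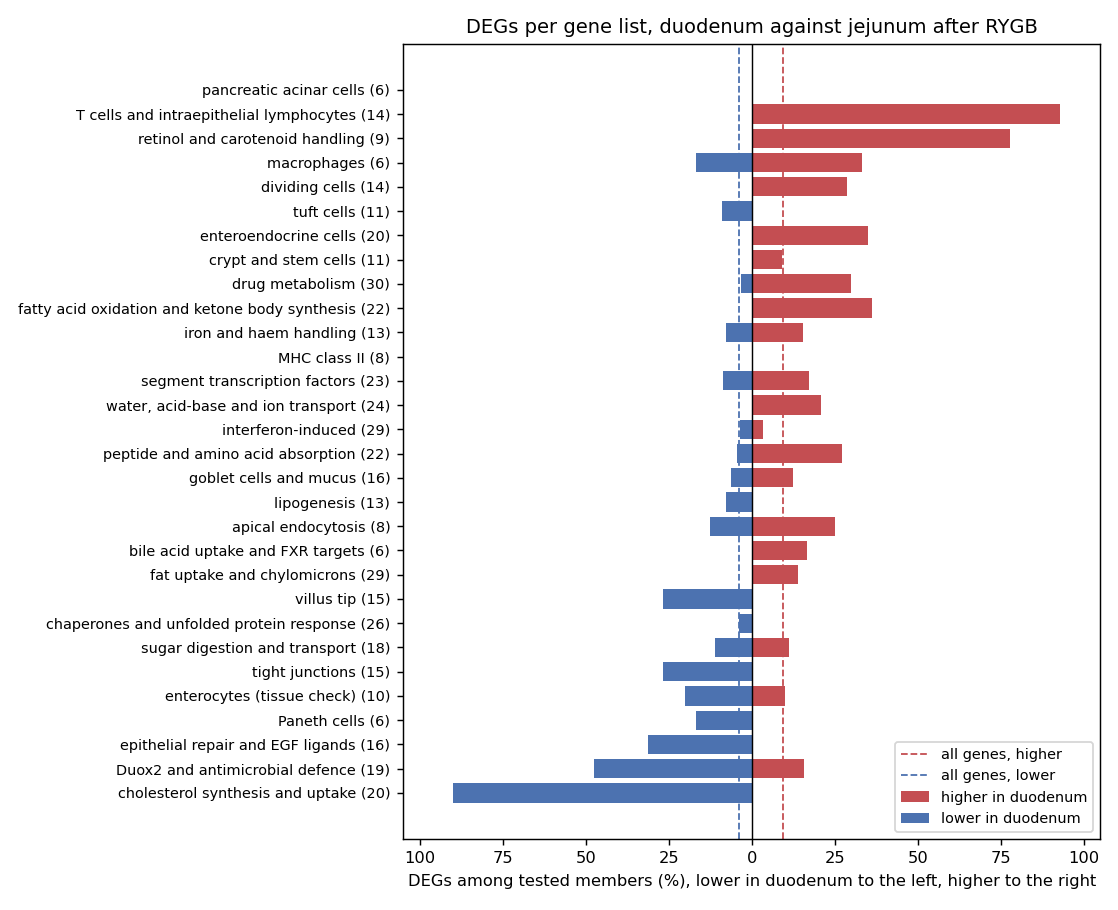
Percent of the tested members of each gene list that were DEGs after RYGB, with those higher in the duodenum to the right of 0 and those lower to the left, the number of members tested in brackets and the shares over all genes as dashed lines. The cholesterol list holds 18 lower DEGs among 20 tested genes and no higher one, and the list of T cells and intraepithelial lymphocytes holds 13 higher DEGs among 14 and no lower one.

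The transcription factors of the segments differed in a minority of cases. Of 23 tested, 4 were higher and 2 lower in the bypassed duodenum, and with median-ratio scaling 1 was higher and 2 lower. Pdx1 was 16.9, 50.2 and 75.0 CPM in the duodenum and 1.5, 3.4 and 4.1 CPM in the jejunum, a log2 difference of 3.43 ± 0.51 (adjusted p = 0.00781). The homeobox factor Meis2 had a log2 difference of 2.66 ± 0.68 (adjusted p = 0.0387), and the differences of Hnf4g (0.96) and Gata6 (0.82) were smaller. Osr2, a zinc finger factor, was lower, with 5.6, 1.4 and 0.8 CPM in the duodenum and 19.8, 14.2 and 25.6 CPM in the jejunum (log2 difference -2.73 ± 0.46, adjusted p = 0.0112). Hnf4a, a factor of enterocyte differentiation, had a log2 difference of -0.79. Gata4, which is expressed in duodenum and jejunum but not in ileum, gave 167.3 to 246.8 CPM in the duodenum and 134.2 to 239.1 CPM in the jejunum, and the libraries overlapped.

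Iron handling was represented at the basolateral and the apical membrane. Besides Slc40a1, the proton-coupled folate and haem transporter Slc46a1 was higher in the duodenum, with 231.9, 661.5 and 607.9 CPM against 179.9, 135.6 and 119.8 CPM (log2 difference 1.66 ± 0.38, adjusted p = 0.0284). The apical iron transporter Slc11a2 was 99.0, 219.0 and 242.0 CPM against 54.7, 113.4 and 110.1 CPM, and its log2 difference of 0.97 ± 0.39 missed the threshold (adjusted p = 0.125). Ferritin heavy chain, Fth1, was higher in all 3 duodenal libraries, at 2839.2 to 6813.4 CPM against 1843.1 to 2411.9 CPM, with an adjusted p of 0.0565. The haem-degrading enzyme Hmox1 was lower, at 0.5 to 1.2 CPM against 2.4 to 5.0 CPM (log2 difference -1.31 ± 0.28, adjusted p = 0.0233). In all, 2 of 13 iron genes were higher and 1 lower, and with median-ratio scaling 1 was higher and 1 lower. None of the 3 calcium and vitamin D genes tested was a DEG, among them the calcium pump Atp2b1 and the vitamin D receptor Vdr.

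Genes that burn fat and make ketone bodies were higher in the bypassed duodenum in 8 of 22 cases and lower in none, with a median log2 difference of 0.65. With median-ratio scaling 6 were higher. Cyp4a10, a target of the fatty acid receptor PPAR alpha, was 34.3, 39.3 and 26.5 CPM in the duodenum and 0.4, 0.5 and 0.5 CPM in the jejunum (log2 difference 4.53 ± 0.21, adjusted p = 0.000182). Pdk4 was 38.7, 43.3 and 61.6 CPM against 6.0, 1.4 and 2.5 CPM, with a log2 difference of 3.62 ± 0.38 (adjusted p = 0.00238). Both genes are known PPAR alpha targets, and Ppara itself had a log2 difference of 1.85. A part of PPAR alpha in these differences was not tested. Further higher members were the thioesterases Acot1 (2.51) and Acot2 (1.48), the thiolase Acaa2 (1.83) and the carnitine palmitoyltransferase Cpt1a (1.05). Of the list, 14 genes were not DEGs, and among them Bdh1, which makes the ketone body hydroxybutyrate, was 104.4 to 112.3 CPM in the duodenum and 95.8 to 117.0 CPM in the jejunum. In sham the list's median segment difference was 0.71 with no DEG, beside 0.06 over all genes. Cyp4a10, Pdk4, Acot1 and Cpt1a had sham differences of 3.81, 0.86, 1.83 and 1.41.

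Fat uptake was called in 4 of 29 genes, all higher, against a median log2 difference of -0.14. Scarb1, a scavenger receptor that takes up lipids, was 23.0, 57.1 and 51.8 CPM in the duodenum and 3.7, 1.9 and 3.0 CPM in the jejunum (log2 difference 3.47 ± 0.36, adjusted p = 0.0023). The fatty acid transporter Cd36 was 143.1, 172.0 and 175.5 CPM against 14, 55.3 and 18.4 CPM, a log2 difference of 2.69 ± 0.43 (adjusted p = 0.00956). The sterol exporters Abcg8 (0.98) and Abcg5 (0.86), which pump sterol back into the lumen, completed the 4, and with median-ratio scaling 2 were higher and none lower. Among the genes of chylomicron formation, the segments overlapped for Mttp, the lipid transfer protein, with 4304.2 to 5850.6 CPM in the duodenum and 5153.6 to 6659.9 CPM in the jejunum, and for Apoa4 with 12999.6 to 21712.8 CPM and 10108.3 to 23856.8 CPM. Mogat2, which resynthesises triglyceride, was 439.5 to 514.0 CPM in the duodenum and 518.0 to 681.7 CPM in the jejunum, without overlap but short of the threshold (adjusted p = 0.238). Lipogenesis had 1 DEG among 13 genes, the desaturase Scd2, which was lower (-2.51). Its relative Scd1 was 100.1, 2.9 and 5.5 CPM in the duodenum and 1.5, 0.3 and 0.1 CPM in the jejunum. Scd1 had a single high library and was short of the threshold (adjusted p = 0.083).

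Retinol handling was higher in the bypassed duodenum in 7 of 9 genes and lower in none, with a median log2 difference of 1.32, and with median-ratio scaling 4 were higher. Lrat, which esterifies retinol for storage and export, was 28.8, 39.5 and 52.5 CPM in the duodenum and 2.2, 7.4 and 5.6 CPM in the jejunum (log2 difference 2.84 ± 0.37, adjusted p = 0.00465). The retinal reductase Dhrs3 was 29.2, 40.8 and 38.3 CPM against 9.2, 7.9 and 14.7 CPM, with a log2 difference of 1.71 ± 0.25 (adjusted p = 0.00731). The dehydrogenases Adh4 (2.47), Aldh1a1 (1.53), Adh1 (1.32) and Rdh7 (1.05) and the plasma carrier Rbp4 (0.81) were the other DEGs. The cellular carrier Rbp2 and the carotene-cleaving enzyme Bco1 overlapped between the segments. The number of DEGs in the list was 3 to 7 when 1 library was left out and 2 with lane as a covariate.

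Drug metabolism had 9 higher and 1 lower DEG among 30 genes, with a median log2 difference of 0.69, and with median-ratio scaling 5 were higher and 1 lower. The cytochrome P450 Cyp3a11 was 2019.6, 828.2 and 632.4 CPM in the duodenum and 571.7, 84.8 and 110.8 CPM in the jejunum (log2 difference 2.53 ± 0.70, adjusted p = 0.0495). The carboxylesterase Ces1g was 22.7, 14.8 and 9.5 CPM against 0.5, 1.9 and 1.7 CPM, a log2 difference of 2.80 ± 0.36 (adjusted p = 0.0045). The P450 Cyp2c29 (2.99) and the epoxide hydrolase Ephx1 (2.32) had differences of like size. The efflux pump Abcg2 was the lower gene (-0.65). In the jejunum, replicate 1 was the highest for Cyp3a11, Cyp2c29 and Ephx1, and the number of higher DEGs in the list was 3 without duodenal replicate 3 and 11 without jejunal replicate 1. In sham the list's median segment difference was 0.93 with no DEG, beside 0.06 over all genes. Cyp3a11, Ces1g, Cyp2c29 and Ephx1 had sham differences of 0.93, 0.94, 3.64 and 2.30.

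Bile acid genes had 1 DEG among 6. Nr0b2, the corepressor that the bile acid receptor FXR induces, was 12.9, 25.5 and 25.8 CPM in the duodenum and 1.4, 0.0 and 0.2 CPM in the jejunum (log2 difference 3.91 ± 0.39, adjusted p = 0.00211). No other gene of the list was a DEG, but with median-ratio scaling Slc51b was lower, and with trimmed mean scaling Slc51b and Abcc3 were. The bile acid exporter subunit Slc51a was 213.8 to 303.3 CPM against 213.2 to 295.9 CPM, and Slc51b was 62.3 to 133.5 CPM in the duodenum and 150.2 to 201.9 CPM in the jejunum (adjusted p = 0.0596).

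Cholesterol synthesis and uptake was lower in the bypassed duodenum than in the jejunum in 18 of 20 genes tested, with a median log2 difference of -2.26. All 20 had each duodenal library below each jejunal one, beside 9.89% of all genes. The 20 genes summed to 954.2, 757.7 and 878.0 CPM in the duodenum and 2777.2, 4142.6 and 4098.3 CPM in the jejunum. With median-ratio scaling all 20 were lower DEGs, with a median of -2.51. The number of lower DEGs was 15 to 19 when 1 library was left out and 13 with lane as a covariate, which rests on jejunal replicate 2.

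The list ran from the first enzymes of the mevalonate pathway to the last steps of sterol formation and to sterol uptake. Hmgcs1, the synthase that makes HMG-CoA, was 91.9, 72.8 and 83.8 CPM in the duodenum and 443.6, 881.9 and 630.8 CPM in the jejunum (log2 difference -2.91 ± 0.25, adjusted p = 0.00121). Further down, the squalene epoxidase Sqle (chr15:59315077-59331192, plus strand, GRCm38) was 17.1, 5.2 and 7.5 CPM against 156.7, 237.5 and 321.6 CPM (log2 difference -4.54 ± 0.40, adjusted p = 0.00145). Hmgcs1 thus varied little between the duodenal libraries, while Sqle had its highest duodenal value in replicate 1. Cyp51, the lanosterol demethylase, was 24.4, 8.6 and 11.9 CPM in the duodenum and 253.2, 342.8 and 423.9 CPM in the jejunum, with a log2 difference of -4.51 ± 0.35 (adjusted p = 0.00121). Srebf2, which encodes SREBP2, was 55.3, 41.9 and 49.2 CPM against 125.2, 196.3 and 216.7 CPM (log2 difference -1.83 ± 0.23, adjusted p = 0.00398). Its sterol-sensing regulator Insig1 had a log2 difference of -2.35. Fdft1 (-3.36) and Sc5d (-0.79) were DEGs as well, and the sterol carrier Stard4 (-0.48, adjusted p = 0.127) was not.

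Promoter sequence was read for this list because its members differed together. Of the 20 genes, 13 had a RefSeq promoter record, and the 250 bases before the annotated start were searched on both strands for CCAAT, the box that NF-Y binds, and for TCACNCCAC, a form of the sterol response element that SREBP binds. The motifs can share at most 1 base and were counted apart. CCAAT was found in 13 of 13, against 40.3% of the 8440 tested genes with a record and 37.5% of all 27025 genes with one. TCACNCCAC was found in 1 of 13, Hmgcs1, against 1.28% and 1.22%. The motifs were chosen after the list had been seen, a gene with several records counted as a match when any of them matched, and a match is a description of letters. The pair with the largest differences whose windows overlap no annotated exon is printed here, from RefSeq (GRCm38.p6), 5′ to 3′ on the strand of the gene and ending at the base before the start. Capitals mark CCAAT, which reads ATTGG on the other strand, and TCACNCCAC.
Mvd, chr8:122443423-122443672, minus strand: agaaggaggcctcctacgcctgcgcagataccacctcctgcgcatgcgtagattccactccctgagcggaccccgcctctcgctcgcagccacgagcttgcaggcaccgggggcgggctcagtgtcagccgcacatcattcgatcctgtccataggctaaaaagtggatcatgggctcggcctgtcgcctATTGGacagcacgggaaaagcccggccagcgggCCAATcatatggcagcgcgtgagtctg
Hmgcs1, chr13:119690101-119690350, plus strand: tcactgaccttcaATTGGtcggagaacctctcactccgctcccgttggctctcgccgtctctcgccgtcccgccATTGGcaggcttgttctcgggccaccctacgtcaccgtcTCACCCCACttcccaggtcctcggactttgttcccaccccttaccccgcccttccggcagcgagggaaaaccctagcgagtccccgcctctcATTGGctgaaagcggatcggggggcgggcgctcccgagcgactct
Mvd, which decarboxylates mevalonate diphosphate, was 10.8, 4.7 and 2.6 CPM in the duodenum and 29.3, 57.9 and 78.3 CPM in the jejunum, a log2 difference of -3.06 ± 0.48 (adjusted p = 0.00859). Its window holds CCAAT once on each strand, and that of Hmgcs1 holds ATTGG at 3 places and the only TCACNCCAC match of the list.

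**Figure D3:**
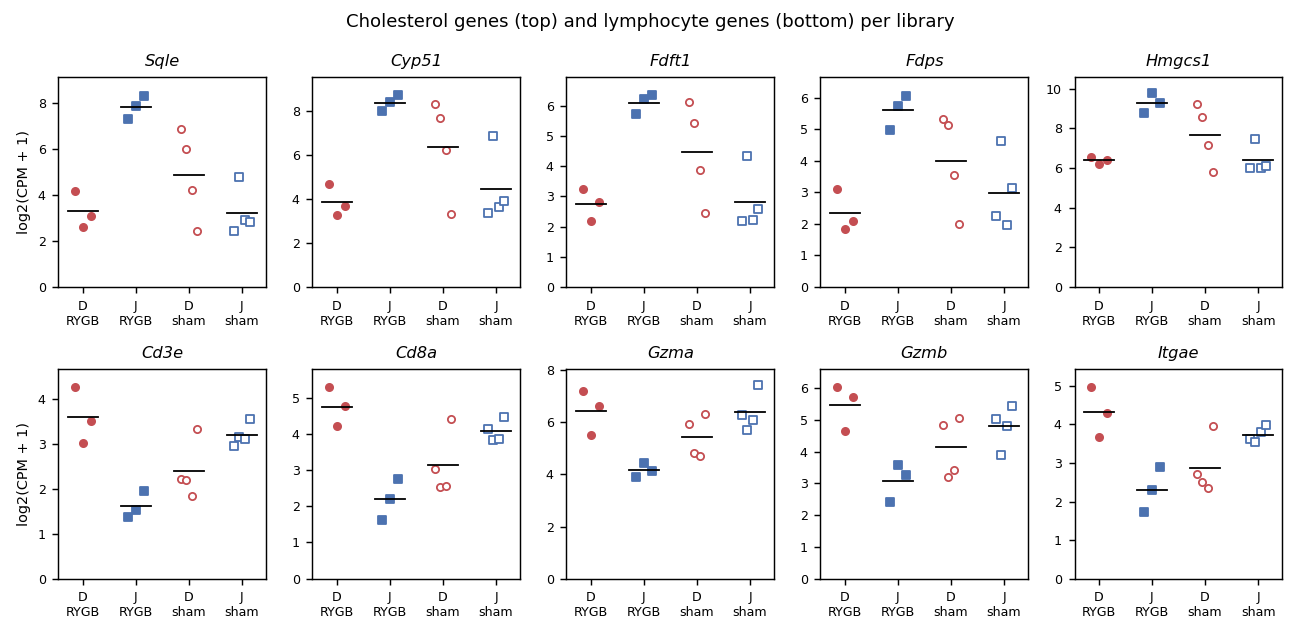
Expression as log2(CPM + 1) (y axis) of genes of cholesterol synthesis and uptake and of lymphocytes in the 14 duodenal (D) and jejunal (J) libraries, with 1 point for each library and a line at the mean of each group. After RYGB the cholesterol genes lie lower and the lymphocyte genes higher in the duodenum than in the jejunum, as for Cyp51 with at most 24.4 CPM against at least 253.2 CPM.

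Antimicrobial defence was mixed, with 9 of 19 genes lower and 3 higher in the bypassed duodenum and a median log2 difference of -1.09, and with median-ratio scaling 9 were lower and 1 higher. Besides Duox2, Duoxa2 and Nos2, the bactericidal lectin Reg3g was lower, at 1655.1, 556.6 and 369.4 CPM in the duodenum and 6731.8, 9246.1 and 11518.0 CPM in the jejunum (log2 difference -3.68 ± 0.51, adjusted p = 0.00542). Its relative Reg3b was 7440.8, 4564.4 and 3909.4 CPM against 14804.2, 29660.2 and 26173.4 CPM, a log2 difference of -2.14 ± 0.38 (adjusted p = 0.0137). Sprr1a, a small proline-rich protein of stressed epithelium, was 0.4 to 1.8 CPM against 12.7 to 131.7 CPM (log2 difference -4.22 ± 0.72, adjusted p = 0.0115). The REG family was thus not uniform, since Reg1 and Reg4 (0.75) were higher in the duodenum and Reg3a was 133.8 to 207.9 CPM against 122.9 to 140.9 CPM with an adjusted p of 0.209. The Sprr2a copies Sprr2a1, Sprr2a2 and Sprr2a3 were lower too, but they are near-identical in sequence and the split of their reads is uncertain. Nlrp6, an inflammasome sensor of the epithelium, was the other higher gene (1.13). The number of lower DEGs was 4 without duodenal replicate 3, 4 without jejunal replicate 2 and 6 to 8 without any 1 of the other libraries.

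Of 16 genes of epithelial repair, 5 were lower in the bypassed duodenum and none higher, with a median log2 difference of -0.85. Plat and Plaur, the tissue plasminogen activator and the receptor of urokinase, were 0.4 to 1.1 and 0.5 to 1.2 CPM in the duodenum and 3.7 to 30.8 and 3.5 to 24.3 CPM in the jejunum (log2 differences -2.75 ± 0.61 and -2.56 ± 0.55, adjusted p = 0.0261 and 0.0241). The EGF receptor ligand Areg (-1.50) and Tnfaip2 (-1.81) were lower as well, and 1 to 3 members were DEGs without any 1 of the libraries except jejunal replicate 3, without which 8 were. With median-ratio scaling 6 repair genes were lower. Of 15 tight junction genes, 4 were lower and none higher (7 lower and none higher with median-ratio scaling), namely the claudins Cldn4 (-2.30), Cldn23 (-1.51), Cldn7 (-0.85) and Cldn3 (-0.64). Cldn4 was 36.9, 73.6 and 18.0 CPM in the duodenum and 394.0, 172.3 and 93.2 CPM in the jejunum (adjusted p = 0.0386), while the paracellular sodium channel Cldn15 overlapped at 555.9 to 693.7 CPM and 594.2 to 694.2 CPM. No tight junction gene was a DEG without duodenal replicate 1 or 3, without jejunal replicate 2, or with lane as a covariate.

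Carbohydrate digestion differed in both directions. Sis, the brush border sucrase-isomaltase, was lower in the bypassed duodenum, at 5814.0, 4105.0 and 4552.2 CPM against 15645.3, 16804.4 and 13443.4 CPM (log2 difference -1.67 ± 0.26, adjusted p = 0.00906). Lactase, Lct, was higher, at 2585.9, 3971.4 and 3235.4 CPM against 1447.9, 1499.0 and 1639.8 CPM (log2 difference 1.07 ± 0.22, adjusted p = 0.0193). The libraries of the segments did not overlap for either disaccharidase. Pklr, a glycolytic pyruvate kinase, was 540.7, 567.1 and 458.9 CPM against 1179.5, 1211.3 and 1224.9 CPM (log2 difference -1.21 ± 0.16, adjusted p = 0.0045), and Pck1, which runs the reverse direction towards glucose, was 96.8, 72.7 and 135.4 CPM against 10.0, 8.8 and 2.3 CPM (log2 difference 3.81 ± 0.45, adjusted p = 0.00341). The hexokinase Hk2, which belongs to no list, was 14, 16.5 and 14.1 CPM against 139.6, 690.2 and 139.4 CPM (adjusted p = 0.00581). The glucose transporters were not called, as Slc5a1 was 4302.9 to 5484.3 CPM in the duodenum and 6416.8 to 8002.0 CPM in the jejunum (adjusted p = 0.175) and Slc2a2 overlapped. In all, 2 of 18 sugar genes were higher and 2 lower, and with median-ratio scaling 1 was higher and 2 lower.

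Amino acid and peptide absorption had 6 higher and 1 lower DEG among 22 genes, but with median-ratio scaling 3 were higher and 6 lower. Slc6a20a was 264.4, 363.1 and 420.2 CPM in the duodenum and 20.7, 25.1 and 13.9 CPM in the jejunum (log2 difference 4.08 ± 0.25, adjusted p = 0.000572). Ace, a brush border dipeptidase known as angiotensin-converting enzyme, was 3062.7, 3598.5 and 3761.1 CPM against 966.8, 1641.5 and 1246.1 CPM (log2 difference 1.46 ± 0.24, adjusted p = 0.00959). The basolateral and apical neutral amino acid transporters Slc7a8 (1.22) and Slc6a19 (1.00) were higher as well, whereas the peptide transporter Slc15a1 was 519.0 to 715.2 CPM in the duodenum and 487.9 to 639.1 CPM in the jejunum. Among 8 genes of apical endocytosis, Cubn and the adaptor subunit Ap1s3 were higher and Rab11a (-0.86) was lower. Cubn, which encodes cubilin, the receptor for the intrinsic factor and vitamin B12 complex, was 201.1, 82.1 and 90.4 CPM against 37.8, 5.0 and 5.1 CPM (log2 difference 3.36 ± 0.70, adjusted p = 0.0215), while its partner Amn overlapped between the segments.

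Water channels and acid-base genes were higher in 5 of 24 cases and lower in none, also with median-ratio scaling. Aqp1 was 94.7, 31.0 and 50.3 CPM in the duodenum and 1.9, 9.5 and 2.4 CPM in the jejunum (log2 difference 3.52 ± 0.54, adjusted p = 0.00829). The glycerol-permeable channel Aqp3 had 49.5, 34.3 and 51.7 CPM against 16.8, 2.5 and 2.9 CPM (log2 difference 2.86 ± 0.57, adjusted p = 0.019), and Aqp8 was listed at 2.2 to 6.2 CPM against 0.0 to 0.1 CPM. The bicarbonate importer Slc4a7 was 364.6, 559.5 and 580.1 CPM against 70.2, 106.8 and 83.1 CPM, with a log2 difference of 2.51 ± 0.23 (adjusted p = 0.00153). Car2, a cytosolic carbonic anhydrase that supplies bicarbonate, was 61.1, 136.8 and 136.2 CPM against 18.0, 23.1 and 19.2 CPM (log2 difference 2.33 ± 0.31, adjusted p = 0.00459). Cftr, the chloride and bicarbonate channel, was 112.2 to 124.6 CPM in the duodenum and 103.6 to 240.9 CPM in the jejunum.

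Hormone-producing cells left 7 higher and no lower DEG among 20 enteroendocrine genes, with a median log2 difference of 0.84, and with median-ratio scaling 5 were higher. Sst, the gene of somatostatin, was 51.0, 28 and 39.3 CPM in the duodenum and 9.2, 5.5 and 12 CPM in the jejunum (log2 difference 2.05 ± 0.31, adjusted p = 0.00783). The incretin gene Gip was 190.0, 98.3 and 141.0 CPM against 84.3, 72.5 and 72.4 CPM (log2 difference 0.85 ± 0.23, adjusted p = 0.0476). Ghrelin, Ghrl (1.13), and Tph1 (1.02), the enzyme of serotonin synthesis, were higher as well. Cck was 29.2 to 49.2 CPM against 12.7 to 27.7 CPM, without overlap, and just missed the threshold (adjusted p = 0.0603). Gcg, which encodes GLP-1, was 7.5 to 11.7 CPM against 5.0 to 10.0 CPM. Neurotensin, Nts, leaned the other way at 20.8, 4.0 and 7.5 CPM against 73.6, 26.2 and 22.2 CPM (adjusted p = 0.0681). Only 1 gene of the list was higher without duodenal replicate 1, without duodenal replicate 3 or without jejunal replicate 2, and 11 were without jejunal replicate 3.

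Secretory and crypt cells gave few DEGs. The goblet mucin Muc2 was 646.5 to 855.9 CPM in the duodenum and 672.2 to 956.6 CPM in the jejunum, and of 16 goblet and mucus genes the membrane mucin Muc3 (2.15) and the chemokine Ccl9 (1.19) were higher and the fucosyltransferase Fut2 (-1.07) was lower, with 1 higher and 1 lower after median-ratio scaling. Of 6 Paneth genes the protease Mmp7 was lower, at 3.5, 2.8 and 1.5 CPM against 13.1, 29.6 and 15.1 CPM (log2 difference -2.45 ± 0.35, adjusted p = 0.00593), while the lysozyme Lyz1 overlapped. Among 11 tuft cell genes Trpm5, their cation channel, was lower (-1.53) although the other 10 had positive differences that missed the threshold. The Wnt regulator Rnf43 (1.72) was the only DEG among 11 crypt genes, but with median-ratio scaling Cd44 and Prom1 were lower beside it, which made 1 higher and 2 lower. Of 14 genes of dividing cells 4 were higher, the replication genes Mcm2 (2.21) and Mcm6 (1.89), Ccnb2 (1.49) and Tyms (1.18), and 12 were without jejunal replicate 3 and 1 to 3 without any 1 of the others. The proliferation marker Mki67 was 36.1, 9.6 and 11.9 CPM in the duodenum and 2.2, 3.4 and 14.2 CPM in the jejunum, so the segments overlapped. Of 15 villus tip genes 4 were lower, the myelin protein gene Pmp22 (-2.42), the cell cycle inhibitor Cdkn1a (-1.07), the receptor Egfr (-1.06) and the keratin Krt20 (-1.0).

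Genes of T cells and intraepithelial lymphocytes (IELs), the T cells that sit between enterocytes, were higher in the bypassed duodenum in 13 of 14 cases, with a median log2 difference of 1.99. With median-ratio scaling the same number was higher, with a median of 1.78. Cd8a, the coreceptor of cytotoxic T cells, was 37.8, 17.5 and 26.0 CPM in the duodenum and 2.1, 3.6 and 5.7 CPM in the jejunum (log2 difference 2.55 ± 0.35, adjusted p = 0.00548). Gzma, a granzyme, was 144.1, 45.1 and 97.9 CPM against 14.1, 20.9 and 16.4 CPM (log2 difference 2.28 ± 0.38, adjusted p = 0.0106). Itgae, the integrin chain that binds IELs to E-cadherin, was 30.2, 11.7 and 18.6 CPM against 2.3, 3.9 and 6.5 CPM (log2 difference 2.00 ± 0.39, adjusted p = 0.0188). The signalling chains Cd3g (2.02), Cd3e (1.98) and Cd3d (1.30) followed, and the exception was the receptor constant gene Trac at 1.6 to 2.7 CPM against 1.4 to 1.7 CPM. In all 14 genes duodenal replicate 1 was the highest library. The 14 genes summed to 420.6, 159.9 and 290.7 CPM in the duodenum and 36.4, 56.8 and 65.5 CPM in the jejunum. The number of higher DEGs was 8 without duodenal replicate 1, 5 without duodenal replicate 3, 8 without jejunal replicate 2 and 10 or 13 without any 1 of the others. It was 2 with lane as a covariate, which rests on jejunal replicate 2.

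A few markers of cells beneath the epithelium were higher in the bypassed duodenum as well. The sum of 4 stromal genes was 12 to 24.9 CPM in the RYGB duodenum and 3.3 to 9.4 CPM in the RYGB jejunum, and that of 3 endothelial genes was 10.8 to 20.6 and 5.9 to 11 CPM. The collagen Col6a1 (1.35) was the only DEG among the stromal genes, and Pecam1 (1.34) and Plvap (1.70) were higher among the endothelial genes. Among 6 macrophage genes the receptor Csf1r (1.38) and the complement gene C1qa (1.42) were higher and Mrc1 (-0.92) was lower. With median-ratio scaling no macrophage gene was higher and 1 was lower, and 1 endothelial gene, Plvap, stayed higher. Among 4 genes of B and plasma cells Ighm (1.71) was higher. The part of these cells in the lymphocyte difference was not tested. No acinar gene was a DEG, with a median log2 difference of 3.01 that rested on duodenal replicate 3, and no marker of gastric glands, neutrophils or erythroid cells was among the joined genes. MHC class II genes had no DEG among 8, interferon-induced genes 1 higher and 1 lower among 29, and chaperones 1 lower among 26, Canx (-0.91), which became 6 lower with median-ratio scaling.

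In sham-operated mice the segments differed in 21 of 10818 genes (0.194%), 12 higher (0.111%) and 9 lower (0.0832%) in the duodenum, although 1478 genes had an unadjusted p under 0.05. The median absolute log2 difference was 0.188 after sham and 0.374 after RYGB over the genes in both fits. Of the 21 genes, 9 were also DEGs after RYGB, all in the same direction, which is 42.9% of the sham DEGs and 0.629% of the RYGB DEGs. They were Foxq1, Reg1, Prdm16, Ppic, Auts2 and Cers4, which were higher in the duodenum, and Slc34a2, Slc41a3 and 1700025G04Rik, which were lower. Of the RYGB DEGs tested in sham, 741 of 1420 (52.2%) had the same sign there. The sham count was 172 without duodenal replicate 4, 97 without jejunal replicate 2 and 445 without both, the libraries that stood apart on segment genes, it was 1 without duodenal replicate 2 or 3 or jejunal replicate 1, 3 or 4, and it was 15 without duodenal replicate 1.

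Whether the segment difference itself differed between RYGB and sham was tested by the interaction, which is the RYGB difference minus the sham difference. It passed the same thresholds in 571 of 10848 genes (5.26%), 421 with a positive (3.88%) and 150 with a negative value (1.38%). The median of all genes was 0.17, and with median-ratio scaling 277 were positive (2.55%) and 253 negative (2.33%). The number was 106 without duodenal RYGB replicate 3 and 1297 without jejunal RYGB replicate 3, it was 167 without duodenal RYGB replicate 1, 176 without jejunal RYGB replicate 2 and 1133 without duodenal sham replicate 4, and it was 172 with lane as a covariate. It was 321 without jejunal RYGB replicate 1, 270 without duodenal sham replicate 2 and 283, 297 and 311 without jejunal sham replicate 1, 3 or 4. All sham jejunal libraries were from lane 1 and all sham duodenal libraries from lane 2, so lane and segment cannot be told apart within sham. The lane term of the interaction comes from jejunal RYGB replicate 2 against replicates 1 and 3 and is carried over to sham.

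Cubn, Slc5a12 and Aqp1 had the largest positive interactions. Cubn (chr2:13276338-13491813, minus strand, GRCm38) was 201.1, 82.1 and 90.4 CPM in the RYGB duodenum and 37.8, 5.0 and 5.1 CPM in the RYGB jejunum. In sham it was 6.1, 30.9, 30.7 and 366.8 CPM in the duodenum and 893.3, 342.2, 863.7 and 421.8 CPM in the jejunum. The order of the segments was thus opposite in most libraries, with duodenal sham replicate 4 inside the jejunal range, and the interaction was 7.20 ± 1.41 (adjusted p = 0.0164). Slc5a12, a lactate transporter, was 61.3 to 177.6 and 8.6 to 23.7 CPM after RYGB and 0.0, 11.3, 34.8 and 172.7 CPM in the sham duodenum against 330.5, 201.6, 706.5 and 154.4 CPM in the sham jejunum (interaction 6.74 ± 1.69, adjusted p = 0.0364). Aqp1 was 2.4, 14, 14.7 and 131.2 CPM in the sham duodenum and 205.2, 104.2, 150.8 and 166.4 CPM in the sham jejunum, with an interaction of 6.61 ± 1.23 (adjusted p = 0.015). The RYGB jejunum, at 1.9 to 9.5 CPM for Aqp1, lay below every sham jejunal library for all 3 genes. A low RYGB jejunum raises the interaction by which these genes were chosen, so that order is partly built into the choice. Its share over all genes was not computed. Slc6a20a was 258.9 to 424.8 CPM in the sham jejunum against 13.9 to 25.1 CPM in the RYGB jejunum, and its duodenal values overlapped between the surgeries (interaction 4.30 ± 0.84, adjusted p = 0.0164). The other 4 of the largest 8 were Pck1 (4.98), the nucleoside transporter Slc28a1 (3.96), the replication gene Mcm2 (3.94) and the chemokine Ccl24 (3.60). Cubn, Aqp1 and Mcm2 passed under all 22 other settings, while Slc5a12, Pck1 and Slc28a1 missed the threshold under 12, 16 and 15 of them. Slc6a20a missed it under 1 of 22 and Ccl24 under 7 of 21.

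**Figure D4:**
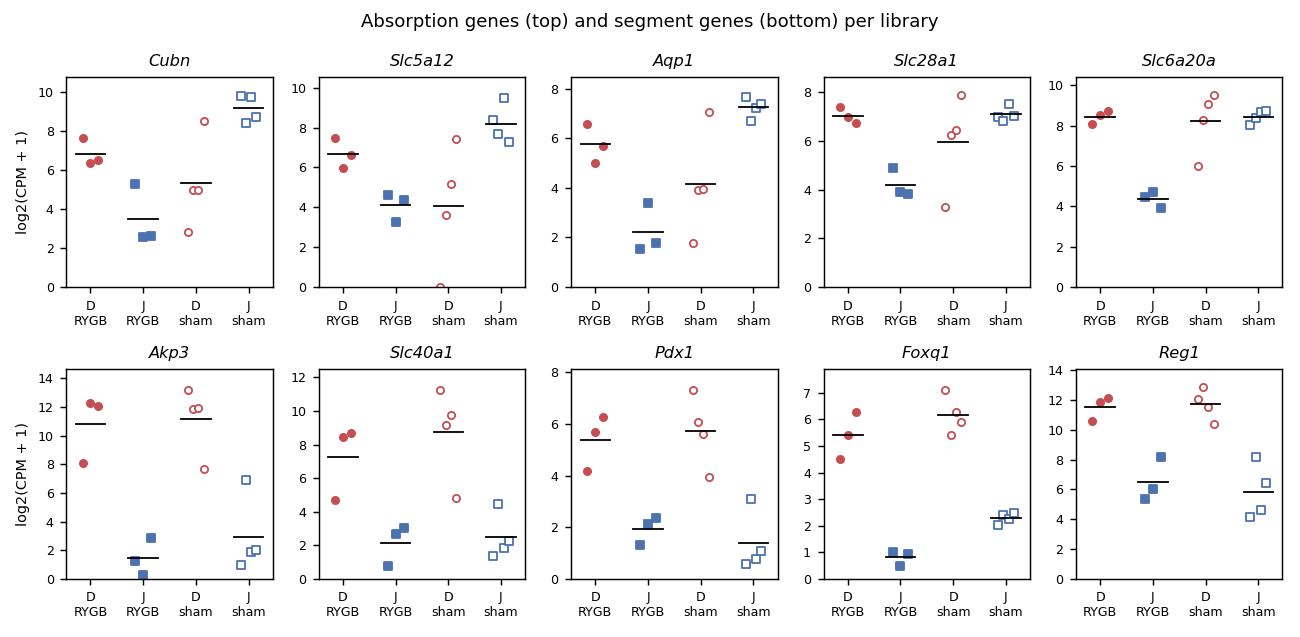
Expression as log2(CPM + 1) (y axis) of absorptive and segment genes in the 14 duodenal (D) and jejunal (J) libraries, with 1 point for each library and a line at the mean of each group. For Cubn and Aqp1 the RYGB jejunum lies below all sham jejunal libraries, while for Akp3 every duodenal library lies above every jejunal one after both surgeries, closest for duodenal sham replicate 4 and jejunal sham replicate 2. Cubn and Aqp1 were chosen by their interaction, which a low RYGB jejunum raises.

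The sterol synthesis genes Cyp51, Sqle and Fdft1 had the largest negative interactions. In sham, Cyp51 was 317.6, 204.4, 73.2 and 8.9 CPM in the duodenum and 9.4, 115.2, 11.6 and 14 CPM in the jejunum, an order opposite to that after RYGB in most libraries (interaction -6.44 ± 1.42, adjusted p = 0.0233). Sqle was 116.5, 64.2, 17.7 and 4.4 CPM in the sham duodenum and 4.4, 26.5, 6.5 and 6.1 CPM in the sham jejunum, with an interaction of -6.20 ± 1.19 (adjusted p = 0.0153). Both spanned a wide range within sham, and duodenal sham replicate 4 was the lowest of its group. Fdft1 (-5.00) and Fdps (-4.26) of the same pathway were among the 8 largest, together with the glycosyltransferase B3galt5 (-4.74) and the neighbouring genes Gml (-4.74) and Gml2 (-4.62) on chromosome 15, whose related sequences leave the split of their reads uncertain. Fdps missed the threshold under 12 of 22 other settings. Over the cholesterol list 16 of 20 genes had a negative interaction past the threshold and none a positive one, with a median of -3.42, and the list's median segment difference in sham was 0.92 with no DEG. The summed level of the list was 809.7 to 3179.2 CPM in the sham duodenum, 923.0 to 1797.7 CPM in the sham jejunum and 2777.2 to 4142.6 CPM in the RYGB jejunum. The number of genes past the threshold was 18 without the 2 sham libraries that stood apart, 5 with lane as a covariate and 3 to 18 when 1 library was left out, where 3 was the number without duodenal RYGB replicate 3.

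IEL genes had a positive interaction past the threshold in 13 of 14 cases, with a median of 2.82, and the list's median segment difference in sham was -0.83 with no DEG. Cd8a was 7.1, 4.8, 4.9 and 20.2 CPM in the sham duodenum and 16.4, 13.3, 13.5 and 21.2 CPM in the sham jejunum, so the sham segments overlapped, and its interaction was 3.50 ± 0.58 (adjusted p = 0.0103). The 14 genes summed to 63.2 to 216.9 CPM in the sham duodenum and 149.1 to 374.4 CPM in the sham jejunum, which placed the RYGB jejunum, at 36.4 to 65.5 CPM, below every sham jejunal library. The RYGB duodenum, at 159.9 to 420.6 CPM, reached above the sham duodenum in 2 of its 3 libraries. The number past the threshold was 13 without the 2 sham libraries that stood apart, 9 with lane as a covariate and 6 to 13 when 1 library was left out, with 6 without duodenal RYGB replicate 1 or 3.

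Segment genes that led the RYGB comparison had interactions that did not pass. The interaction of Akp3 was 1.13 ± 2.12 (adjusted p = 0.784), that of Slc40a1 -1.13 ± 1.86 (adjusted p = 0.752), that of Reg1 -0.85 ± 1.25 (adjusted p = 0.723), that of Pdx1 -0.94 ± 1.04 (adjusted p = 0.623) and that of Foxq1 0.71 ± 0.56 (adjusted p = 0.466). Their errors are too wide to show that the difference was alike after both surgeries. Duox2 was 1.1 to 90.6 CPM in the sham duodenum and 23.8 to 68.2 CPM in the sham jejunum, far below the 1002.1 to 1862.0 CPM of the RYGB jejunum, and its interaction of -3.55 ± 1.81 did not pass (adjusted p = 0.256). Of the defence list the interaction passed for Sprr1a (-4.07) and Reg3g (-3.25), both negative. Pdk4, in contrast, had an interaction of 2.77 ± 0.53 (adjusted p = 0.0152), Nr0b2 one of 2.73 ± 0.56 (adjusted p = 0.0186), and Lrat and Cd36 ones of 3.07 ± 0.74 and 2.96 ± 0.72 (adjusted p = 0.0309 and 0.0329). Cyp4a10 had an interaction of 0.72 ± 1.31 (adjusted p = 0.777). The median interaction was 0.01 over the list of fat oxidation and ketone bodies and -0.28 over drug metabolism, beside 0.17 over all genes. The interaction passed in 2 of 22 and 2 of 30 of their genes, all positive.

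**Figure D5:**
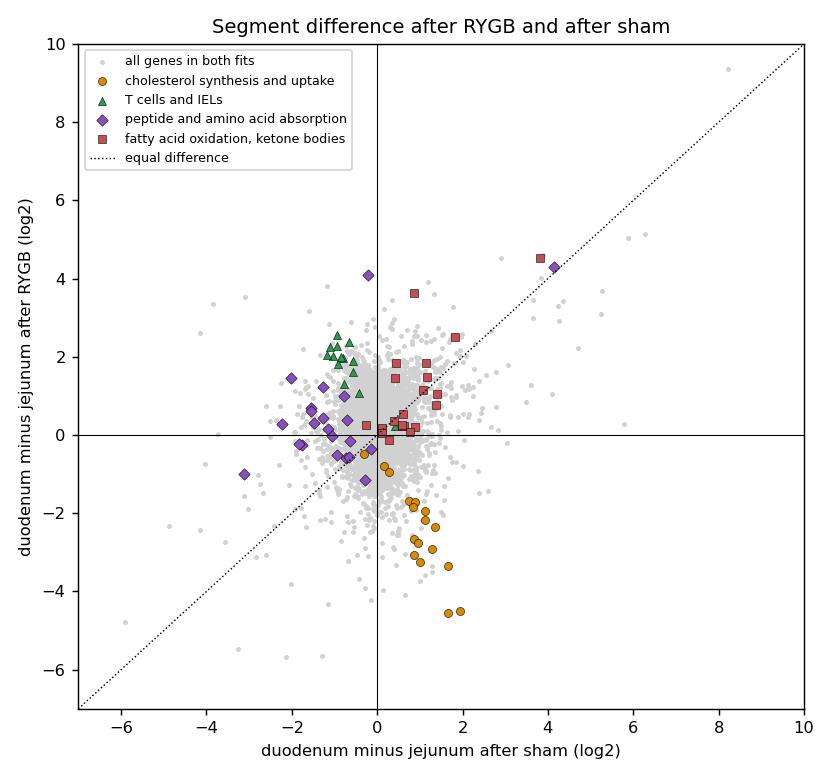
Segment difference after sham (x axis) against that after RYGB (y axis), both as log2 of CPM + 1, duodenum minus jejunum, with 1 grey point for each gene, the reported members of 4 lists marked and a dotted line where the differences are equal. The cholesterol genes lie below 0 on the RYGB axis while the list's median on the sham axis is 0.92, and the T cell and IEL genes lie above 0 on the RYGB axis with a median of -0.83 on the sham axis.

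Genes listed in a single table could not be compared between the segments, because absence from a table gives no value for the other segment. The jejunum table alone listed 128 genes, and the 6 with the highest mean after RYGB were Slc5a8, Plet1, C1galt1c1, Saa1, Clca3a2 and Tnfsf15. Slc5a8, a transporter of short-chain fatty acids, was 170.8, 323.2 and 94.7 CPM in the RYGB jejunum and 34.7 to 178.2 CPM in the sham jejunum. Plet1, a surface protein of progenitor and repairing epithelium, was 18.5, 149.8 and 55.6 CPM against 0.2 to 0.9 CPM. Saa1, an acute phase protein that the epithelium also makes, was 14.6, 38.7 and 50.9 CPM against 1.5 to 3.9 CPM. A gene was listed when at least 3 libraries reached 1 CPM, and Plet1 met this through the RYGB libraries alone, so nothing is read from its lack of overlap with sham. The 6 genes were chosen by their RYGB mean, which favours values above sham. The 14 genes of the duodenum table alone were sparse, the highest being the haemoglobin gene Hbb-bs with 9.1, 1.0 and 5.5 CPM after RYGB.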

How the data were processed

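RNA of scraped villi was sequenced after a stranded mRNA library kit. The submitters' processing notes name HTSeq and GRCm38 without versions, and the aligner is not given in the sources used here. The authors deposited 1 table per segment with CPM values rounded to 0.1, a unit read from the values, since with 1 line per gene the columns summed to 925122 to 998532. Repeated lines (298 in the duodenum table and 359 in the jejunum table) held equal values and were used once. Because they lift the sums past those of CPM, the deposited jejunum values were handled as a signal of unit CPM. Each listed gene reached 1 CPM in at least 3 libraries of its table, and genes not listed held 2.618% of duodenal RYGB replicate 3, 2.932% and 7.488% of duodenal sham replicates 1 and 2, and at most 0.373% of the others. Depth is unknown, and a single read weighed about 0.1 CPM at most, so no interval from counts was computed.

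The tables were joined on the Ensembl identifier (10817 of 10893 genes had a symbol) and compared across tables because each library was scaled to its own total. Genes averaging 1 CPM or more over the libraries fitted were tested on log2(CPM + 1) with limma 3.58.1 (empirical Bayes with a trend, Benjamini-Hochberg adjustment) in R 4.3.3, without covariates. The RYGB fit held 6 libraries, the sham fit 8 and the interaction 14. The join and the summaries used Python 3.11.15 with pandas 2.3.3 (numpy 2.4.6), and the fits were tested on simulated data. The comparison and the gene lists were chosen with earlier results of these data known. Genes named were the 12 with the largest positive and the 12 with the largest negative RYGB difference among DEGs without overlap between the segments, the 8 and 8 with the largest interactions, up to 4 members of each list with the largest difference, the lists' defining markers, and the 6 highest genes of a single table. Some genes that these rules name are not reported here. Other members were named after their values were seen. Alternatives were other pseudocounts, filters, scalings, a lane covariate, a replicate block and leaving out libraries. Coordinates are those of GENCODE M21 on GRCm38. The other tissues were not used here.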

Additional observations from a re-analysis of the deposited data

Results flagged for a closer look

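A library stood apart from the other 3 of its group in 3 of 64 groups of 4 sham libraries tested for the ranked genes, where chance alone does so in about 1 in 20 groups. These were Cyp51 in jejunal sham replicate 2 (115.2 CPM against 9.4 to 14 CPM), Mgat4c in jejunal sham replicate 3 (15.4 CPM against 6.6 to 7.6 CPM) and Gml in jejunal sham replicate 2 (4.8 CPM against 1.0 to 1.3 CPM).

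Of the 8 genes with the largest positive and the 8 with the largest negative interaction among those past the threshold, 15 are reported, 8 positive and 7 negative. Passing the interaction test was part of how they were chosen, and other named genes passed it as well. The positive values, on the log2 scale, were 7.20 for Cubn, 6.74 for Slc5a12, 6.61 for Aqp1, 4.98 for Pck1, 4.30 for Slc6a20a, 3.96 for Slc28a1, 3.94 for Mcm2 and 3.60 for Ccl24. The negative values were -6.44 for Cyp51, -6.20 for Sqle, -5.00 for Fdft1, -4.74 for B3galt5, -4.74 for Gml, -4.62 for Gml2 and -4.26 for Fdps.

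Of the 6 genes with the highest RYGB mean among those that only the jejunum table listed, and which the segment comparison therefore leaves out, 4 had every RYGB library above every sham library. Among all 128 genes that only the jejunum table listed, 41 had that order and 14 the reverse. Ranking by the RYGB mean favours that order, so nothing is read from it. A gene was listed when 3 libraries reached 1 CPM, which the 3 RYGB libraries alone can meet, so for Plet1, below 1 CPM in every sham library, the listing itself fixes that order. The lowest RYGB library had 18.5 CPM of Plet1, 14.6 CPM of Saa1, 10.0 CPM of Clca3a2 and 1.4 CPM of Tnfsf15, and the highest sham library had 0.9, 3.9, 5.7 and 1.2 CPM.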

How the results depend on the processing

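With libraries compared on 3 against 3, 1 library decides much of the count of DEGs. After RYGB the count was 1431, and it ranged from 270 to 3255 when 1 replicate was left out. It was 709 with a mean of at least 10 CPM, 598 with lane as a covariate, 2240 in lane 2 alone and 2210 when jejunal RYGB replicate 3 was left out and median-ratio scaling was used, an alternative chosen after seeing the data. Pseudocount 0.1, no minimum, both scalings, all 14 libraries in 1 fit and no fold change minimum left it between 1269 and 1848. With the trimmed mean scaling 622 were higher and 656 lower. The sham count of 21 was 12 with a pseudocount of 0.1, 1 with a mean of at least 10 CPM, 13 with the trimmed mean scaling and 445 without duodenal replicate 4 and jejunal replicate 2, which was also chosen after seeing the data, and it ranged from 1 to 172 when 1 replicate was left out. The interaction count of 571 was 171 with a mean of at least 10 CPM, 172 with lane as a covariate and 1316 without both of these sham libraries, and it ranged from 106 to 1297 when 1 replicate was left out.

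Whether replicate numbers pair the libraries is not settled by the labels, and no pairing was used, since only sham pairs 2 and 3 had deviations that correlated above 0.1. The deviations of equally numbered RYGB libraries of the segments correlated at -0.0197, -0.00667 and 0.0118, and those of sham at -0.095, 0.414, 0.337 and 0.0465. Those of unequally numbered sham libraries ran from -0.506 to 0.276. The summed MHC class II genes, given under Other observations, ranked the sham replicates alike in both segments. With the replicate number as a block the limma count was 1223 after RYGB, 0 after sham (1580 genes at an unadjusted p under 0.05) and 673 for the interaction.

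None of the 23 ranked RYGB genes or the 15 interaction genes reported changed direction under any setting. Of the 23, 18 stayed past the threshold in all 16 settings, and 336 of 368 fits did. Of the 15, 5 did so in all settings (Sqle, B3galt5, Cubn, Aqp1 and Mcm2), and 256 of 328 fits did. The unknown depth and the rounding limit genes near 1 CPM.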

Other observations

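MHC class II genes, which present antigen and can be induced in the epithelium, were high in the sham replicate 3 libraries of both segments. The summed level of 8 class II genes was 2141.7 CPM in duodenal sham replicate 3 and 4532.8 CPM in jejunal sham replicate 3. It was 179.1, 249.4 and 573.6 CPM in the other duodenal sham libraries, 186.7, 294.0 and 617.0 CPM in the other jejunal sham libraries, in the order of replicates 2, 1 and 4 in both segments, and 198.8 to 271.3 CPM in the 6 RYGB libraries. Cd74, the invariant chain, was 804.2 and 1923.4 CPM in the sham replicate 3 libraries and at most 125.5 CPM in any other.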
